A study of Mus musculus with 12 samples.

Results

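The circadian clock genes are 10 of the 43686 rows of the expression table, and they were chosen by name: Arntl, Clock, Per1, Per2, Per3, Cry1, Cry2, Nr1d1, Nr1d2 and Dbp. Each name matched 1 row, and all 10 passed the filter on low counts, as did 17155 rows in all. RNA-seq measured mRNA captured on poly-T beads from the ventricular wall of mouse hearts (strain C57BL/6 in the labels and C57BL/6J in the methods, at post natal month 2 in the labels). The text of the study instead gives 6 weeks for the RNA-seq hearts. Its reporting summary gives male mice for the omics work, at an age close to that of the labels or at a younger one. The 6 WT libraries came from mice with floxed Sdhaf4 alleles (Sdhaf4fl/fl) and no Cre, labelled wild type. The 6 KO libraries, labelled Sdhaf4-/-, came from littermates with the same floxed alleles and Ckmm-Cre, which is driven by the promoter of muscle creatine kinase and deletes the gene in heart and skeletal muscle but not in the other cells of the ventricular wall. Sdhaf4 encodes an assembly factor of succinate dehydrogenase, mitochondrial complex II. The mice were kept in a light and dark cycle, but the time of day at which each heart was taken is not given in the sources used here, so collection time and genotype cannot be told apart.

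The mammalian clock is a loop of transcription and translation that runs in almost every cell, heart muscle included. BMAL1, the product of Arntl, pairs with CLOCK or NPAS2, binds E-box sequences and switches on the Per and Cry genes, whose proteins then block the pair, as well as Nr1d1, Nr1d2 and Dbp. The nuclear receptors encoded by Nr1d1 and Nr1d2 (REV-ERB alpha and beta) repress Arntl and other genes through ROR elements, which the ROR receptors activate, and DBP activates genes with a D-box, so the mRNAs of the loop peak at different times of day.

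Between 23747014 and 27159228 counts fell on the rows in the WT libraries and between 26542930 and 31393393 in the KO libraries. Levels are given below as CPM, the counts scaled to library size after TMM adjustment, and log2 fold changes are KO over WT with their standard errors. The deletion was visible in every KO library, since Sdhaf4 averaged 25.2 ± 5.80 CPM in WT and 2.40 ± 0.170 in KO (SD, n = 6 each), a log2 fold change of -3.39 (SE 0.16, edgeR adjusted p = 1.95e-10). Among the markers of the tissue, 8 of 9 cardiomyocyte genes could be tested and together ranged from 48590 to 52710 CPM in WT and from 38190 to 51350 in KO, with 0 higher and 5 lower in KO, where 25.6% of all rows tested were called higher and 25.5% lower. All 6 fibroblast genes were higher in KO, with sums of 1152 to 1311 and 1892 to 3049 CPM. Of the endothelial genes 3 of 5 were higher and 1 lower, of the smooth muscle genes 1 of 3 was lower, and of the macrophage genes 2 of the 4 tested were lower. Of the skeletal muscle genes 1 of 5 and of the lymphocyte genes 1 of 3 passed the filter on low counts, and all genes of these lists together came to at most 6.95 and 2.32 CPM in any library, without TMM adjustment. In these bulk samples, fewer cells of a type and less RNA per cell cannot be told apart, and the part of these cell type differences in the results on the clock genes was not tested.

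Promoter sequences of 6 clock genes are shown because the loop acts through short motifs near the start of its genes. They are 3 members called higher, the 1 member called lower, an activator that was not called, and Ciart. Each window, from RefSeq on GRCm38.p6, holds 250 bases before the start of a transcript and 50 after it, in the direction of transcription, with the motifs in capitals. Ciart, which encodes a repressor of the BMAL1 pair, is not a member but had the largest fold change among the other clock genes.
Dbp, chr7:45704997-45705296, plus strand: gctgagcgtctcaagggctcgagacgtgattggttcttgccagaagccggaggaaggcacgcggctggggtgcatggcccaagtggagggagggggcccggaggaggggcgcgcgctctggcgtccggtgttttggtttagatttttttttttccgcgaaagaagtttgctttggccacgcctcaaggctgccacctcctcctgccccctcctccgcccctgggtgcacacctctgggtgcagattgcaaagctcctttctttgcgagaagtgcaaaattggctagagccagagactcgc
Nr1d1, chr11:98775328-98775627, minus strand: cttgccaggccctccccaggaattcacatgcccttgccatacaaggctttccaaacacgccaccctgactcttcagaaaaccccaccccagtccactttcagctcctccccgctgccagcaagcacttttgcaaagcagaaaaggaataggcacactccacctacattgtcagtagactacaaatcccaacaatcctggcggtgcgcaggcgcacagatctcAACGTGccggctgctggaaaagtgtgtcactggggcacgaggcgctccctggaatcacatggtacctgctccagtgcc
Cry1, chr10:85185005-85185304, minus strand: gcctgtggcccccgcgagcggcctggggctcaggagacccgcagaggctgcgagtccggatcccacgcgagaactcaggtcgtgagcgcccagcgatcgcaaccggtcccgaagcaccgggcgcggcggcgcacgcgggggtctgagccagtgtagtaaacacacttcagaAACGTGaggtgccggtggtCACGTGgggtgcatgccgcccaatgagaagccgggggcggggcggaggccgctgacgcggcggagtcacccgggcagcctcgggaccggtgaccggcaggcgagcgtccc
Cry2, chr2:92434020-92434319, minus strand: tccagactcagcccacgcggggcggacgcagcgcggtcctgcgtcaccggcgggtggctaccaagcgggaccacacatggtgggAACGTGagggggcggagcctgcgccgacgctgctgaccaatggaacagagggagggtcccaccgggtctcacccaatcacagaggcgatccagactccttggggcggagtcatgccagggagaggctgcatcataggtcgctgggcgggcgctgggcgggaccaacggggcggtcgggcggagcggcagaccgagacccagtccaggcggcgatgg
Ciart, chr3:95882179-95882478, minus strand: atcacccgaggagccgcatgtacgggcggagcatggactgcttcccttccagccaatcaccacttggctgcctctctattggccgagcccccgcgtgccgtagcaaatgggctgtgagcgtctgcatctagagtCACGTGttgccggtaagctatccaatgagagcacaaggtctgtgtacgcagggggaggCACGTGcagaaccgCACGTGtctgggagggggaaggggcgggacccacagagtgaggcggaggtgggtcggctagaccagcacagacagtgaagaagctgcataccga
Arntl, chr7:113207261-113207560, plus strand: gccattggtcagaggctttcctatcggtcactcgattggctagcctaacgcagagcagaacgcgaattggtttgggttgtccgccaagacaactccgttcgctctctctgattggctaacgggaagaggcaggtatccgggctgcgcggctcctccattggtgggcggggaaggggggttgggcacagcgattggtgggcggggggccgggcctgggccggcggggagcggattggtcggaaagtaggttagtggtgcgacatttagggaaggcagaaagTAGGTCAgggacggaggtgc

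The capitals mark the E-box CACGTG, the variant CACGTT (read as AACGTG on the opposite strand) and the core of the ROR element, TAGGTCA. These motifs and the D-box TTATGTAA were searched on both strands, and no marked motif overlaps another. Of the 10 members, 9 had at least 1 window. Per2 had none. The E-box was found in windows of 2 members, 60 bases before the start of Cry1 and 166 bases before the start of Per1. It is present in 7.15% of all 32851 windows, a share of windows and not of genes, as are the shares below. Ciart carries the E-box at 116, 58 and 44 bases before its start. Of the 17 other clock genes with a window, 4 had the E-box: Ciart and Bhlhe41, called higher, and Tef and Cipc, not called. The variant lies 28 bases before the start of Nr1d1, 79 before that of Cry1 and 166 before that of Cry2, and is present in 4.68% of all windows. Per3 has the D-box at 205 and 158 bases before its start, against 0.938% of all windows. The ROR element core is present in 2.61% of all windows and begins at base 31 of the transcript in the Arntl window shown, which is 1 of 2 overlapping windows of that gene. None of the 4 motifs was found in the windows of Dbp, Clock or Nr1d2, which concerns only these letters in these windows.

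The mRNA of 4 of the 10 clock genes was higher in KO (Dbp, Per2, Nr1d1 and Cry1) and that of 1 was lower (Cry2) at an edgeR adjusted p under 0.05. Across all rows tested, 25.6% were called higher and 25.5% lower. The share of members called higher was thus above the background and the share called lower below it, over 10 genes and with no test of the difference. Dbp and Per2 also passed the stricter thresholds of the study's methods (adjusted p under 0.005 and a fold change above 1 on the log2 scale in either direction), which 10.2% of all rows passed. The median log2 fold change of the members was 0.15, against 0.00 over all rows tested. The WT and KO libraries did not overlap in 2 members, Dbp and Nr1d1, against 30.1% of all rows. With library size only in place of TMM, Per2 and Cry1 joined them, making 4 members. The change was therefore uneven, with the output gene Dbp at one end and the repressors of the loop spread from a rise to a fall. The activators Arntl and Clock were near no difference, as were the repressors Per3 and Nr1d2.

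**Figure D1:**
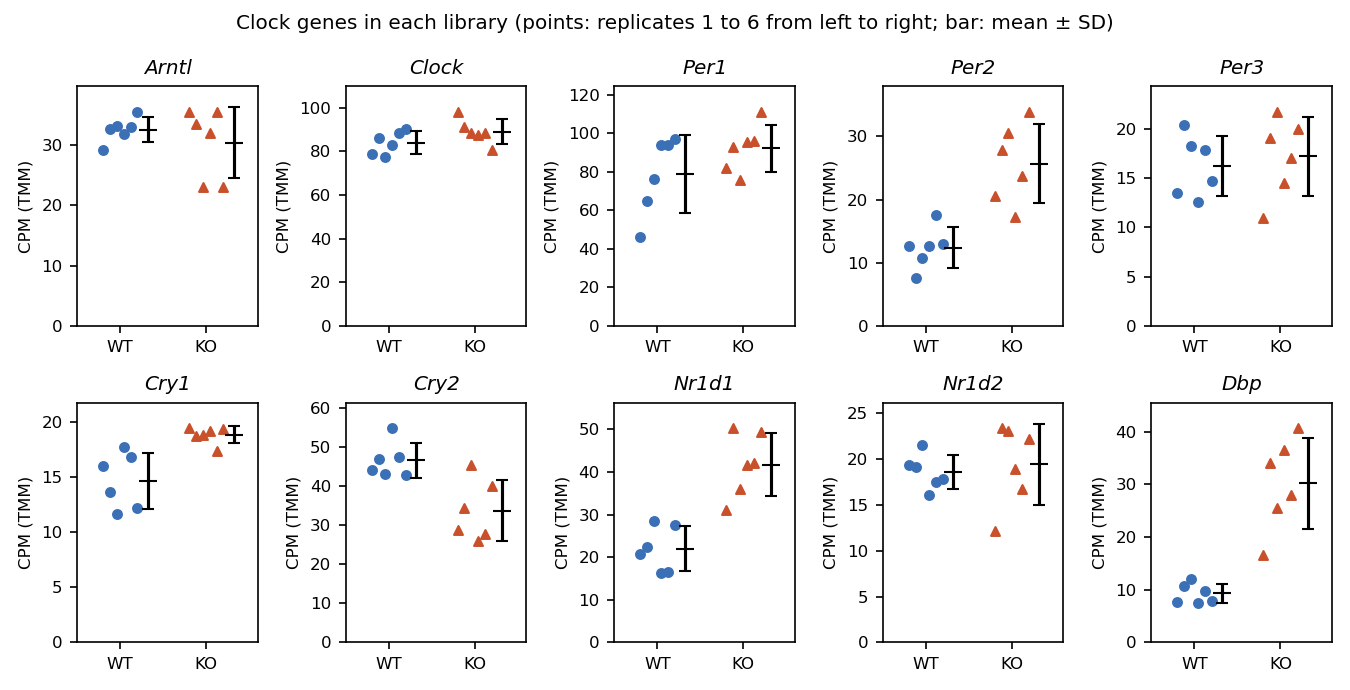
Level of each of the 10 clock genes in CPM (y axis, from 0) in the 6 WT libraries (blue circles) and the 6 KO libraries (red triangles), with replicates 1 to 6 from left to right and the mean ± SD as a bar. The WT and KO points do not overlap for Nr1d1 and Dbp, and the KO points of Arntl hold 2 libraries at 23.0 CPM.

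Dbp encodes a PAR bZIP transcription factor whose mRNA is among the most strongly cycling outputs of the clock. It lies on chromosome 7 (48264267-48269334, plus strand, on the C57BL/6NJ assembly of the gene identifiers). Its lowest, median and highest levels were 7.55, 8.85 and 12.04 CPM in WT and 16.6, 31.0 and 40.7 CPM in KO. All KO libraries were above all WT libraries, and KO replicate 1 was the nearest to them. The means were 9.29 ± 1.87 and 30.2 ± 8.68 CPM (SD, n = 6 each), a 3.24-fold rise with a log2 fold change of 1.70 (SE 0.20, adjusted p = 1.45e-05). Dbp shares 689 bases with Sphk2 on the opposite strand, and since no source used here says whether counting took strand into account, reads in the overlap cannot be assigned with certainty. Sphk2, a sphingosine kinase gene, went the other way, with a log2 fold change of -0.42 (SE 0.08, adjusted p = 0.000217).

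Nr1d1, the repressor REV-ERB alpha, ranged from 16.3 to 28.6 CPM in WT (median 21.6) and from 31.1 to 50.3 CPM in KO (median 41.9). The groups did not overlap. The log2 fold change was 0.92 (SE 0.16, adjusted p = 0.000304), or 1.89-fold. On chromosome 11 (104472766-104480167, minus strand), Nr1d1 shares 1075 bases with Thra, the thyroid hormone receptor alpha gene on the opposite strand. Thra had more counts than Nr1d1 and was lower in KO, at 143 ± 12.9 and 106 ± 5.77 CPM (log2 fold change -0.44, SE 0.06, adjusted p = 1.07e-05). Nr1d2, which encodes the related REV-ERB beta, averaged 18.6 ± 1.89 CPM in WT and 19.4 ± 4.39 in KO. Its log2 fold change was 0.06 (SE 0.14, adjusted p = 0.726), and the KO libraries, from 12.2 to 23.4 CPM, reached past the WT range of 16.1 to 21.6 on both sides.

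The 3 Period genes encode proteins that join the cryptochromes in blocking the BMAL1 pair. Per2 (chromosome 1, 96520397-96563842, minus strand) ranged from 7.66 to 17.6 CPM in WT with a median of 12.7, and from 17.3 to 33.9 CPM in KO with a median of 25.8. The groups met at 1 pair of libraries, WT replicate 5 at 17.6 and KO replicate 4 at 17.3 CPM, and were otherwise apart. Per2 rose 2.08-fold (log2 fold change 1.05, SE 0.20, adjusted p = 0.000541). The fold change is close to the stricter threshold, and leaving out WT replicate 2, KO replicate 3 or KO replicate 6 took it to 0.94, 0.99 and 0.95, so that Dbp alone passed.

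Per1 and Per3 were not called. Per1, which also responds within hours to hormones and stress signals, averaged 78.8 ± 20.3 CPM in WT and 92.2 ± 12.4 in KO (log2 fold change 0.23, SE 0.17, adjusted p = 0.292). WT replicates 1 and 2 were the lowest at 46.3 and 65.1 CPM, below every KO library, and the other 4 WT libraries, up to 97.1 CPM, lay among the KO libraries, which ranged from 75.6 to 111. Per3 averaged 16.2 ± 3.07 and 17.2 ± 3.97 CPM (log2 fold change 0.08, SE 0.16, adjusted p = 0.699), and the groups overlapped over most of their range. Its whole span lies within that of Camta1 on the same strand, a gene with a log2 fold change of 0.07 (SE 0.06, adjusted p = 0.385), so its counts are uncertain to that extent.

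The cryptochromes, the other blocking partners, were called in opposite directions. Cry1 (chromosome 10, 88951296-89009553, minus strand) ranged from 11.6 to 17.7 CPM in WT and from 17.3 to 19.4 CPM in KO, with medians of 14.8 and 19.0. KO replicate 5, the lowest of its group, was the only KO library below a WT library, which was WT replicate 4. The log2 fold change was 0.36 (SE 0.10, adjusted p = 0.00488), or 1.28-fold. Cry2 (chromosome 2, 97049968-97080352, minus strand) ranged from 43.0 to 54.9 CPM in WT and from 26.0 to 45.5 CPM in KO, with medians of 45.6 and 31.7. Only KO replicate 3, at 45.5 CPM, reached into the WT range. Cry2 was 27.5% lower in KO, with a log2 fold change of -0.46 (SE 0.13, adjusted p = 0.00698).

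The activators among the members, Arntl and Clock, were not called. Arntl (chromosome 7, 121567941-121685673, plus strand) ranged from 29.3 to 35.5 CPM in WT and from 23.0 to 35.4 CPM in KO, with medians of 32.8 in each group. KO replicates 3 and 6, both at 23.0 CPM, were below every WT library, while the other 4 KO libraries lay within the WT range. Its log2 fold change was -0.10 (SE 0.11, adjusted p = 0.466). Clock averaged 84.0 ± 5.22 CPM in WT and 89.0 ± 5.76 in KO (log2 fold change 0.08, SE 0.05, adjusted p = 0.217), and shares 2016 bases with Tmem165 on the opposite strand. A p above the threshold does not show that the activators were equal in the groups.

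Set beside Arntl within each library, Dbp differed from it by -2.16 to -1.46 on the log2 scale in the WT libraries and by -1.09 to 0.82 in the KO libraries. The same difference for Nr1d1 ran from -0.99 to -0.21 in WT and from -0.19 to 1.10 in KO. Neither range overlapped between the groups, but for Nr1d1 the gap was narrow, from -0.213 in WT replicate 3 to -0.188 in KO replicate 1. Dbp and Nr1d1 did not overlap by themselves either, so these differences are not separate support. These are differences in log2 CPM, which carry the lengths of the genes, so only their shift between libraries can be read.

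**Figure D2:**
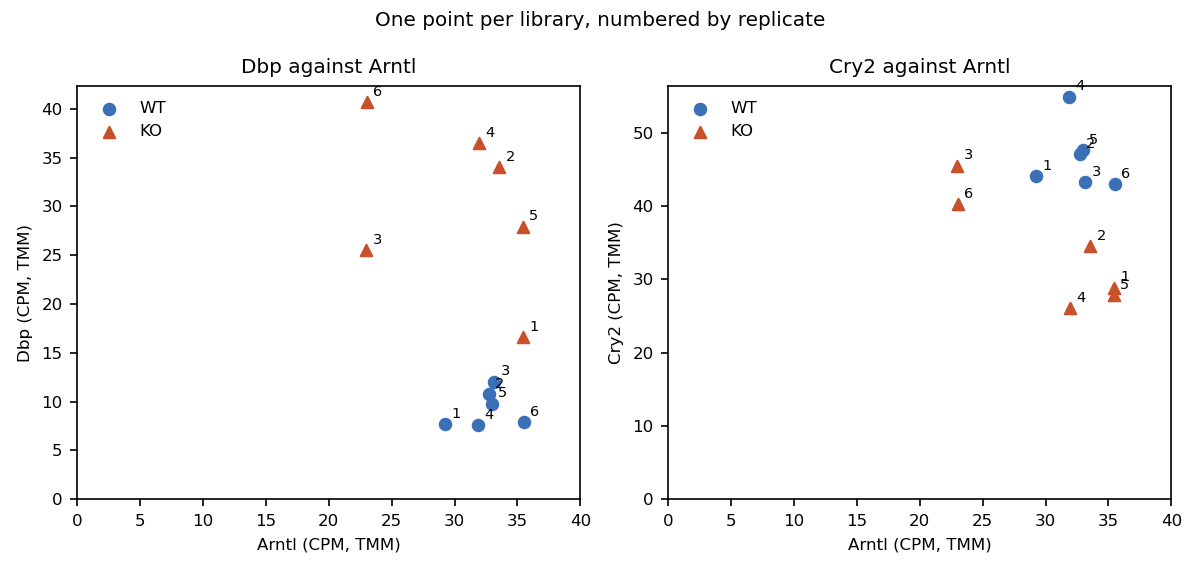
Dbp (left) and Cry2 (right) against Arntl in CPM, 1 point per library numbered by its replicate, with WT as blue circles and KO as red triangles. KO replicates 3 and 6 stand apart on the x axis at 23.0 CPM of Arntl and hold the highest Cry2 of their group, 45.5 and 40.2 CPM, while all 6 KO points lie above the WT points for Dbp.

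The KO libraries were not alike in their clock genes. KO replicates 3 and 6, the lowest in Arntl, were the highest of the KO group in Per2 (30.6 and 33.9 CPM), in Cry2 and in Per3 (21.75 and 19.97 CPM). They also stood apart from the other 4 KO libraries in many, but not all, cell type markers. Both were below all 4 in 5 of 6 fibroblast genes (Col1a1 at 226 and 185 CPM against 341 to 484), in 4 of 5 endothelial genes and in 3 of 3 smooth muscle genes, and above all 4 in 6 of the 8 cardiomyocyte genes tested (Tnnt2 at 10850 and 11010 CPM against 7562 to 8987). Myh6, the most abundant cardiomyocyte gene tested, was at 18630 CPM in KO replicate 3 and 12500 in KO replicate 6, against 13320 to 14600. In no macrophage, lymphocyte or skeletal muscle gene tested were both above or both below all 4. How often both lie outside the other 4 over all rows was not counted. The part of these marker levels in the levels of the clock genes was not tested. Without both libraries, an alternative chosen after seeing the data, 4 members were higher and 1 lower as before, and no call of a member changed. Cry2 then had a log2 fold change of -0.67 (adjusted p = 5.43e-06), Per2 one of 0.86 (adjusted p = 0.00318) and Arntl one of 0.07 (adjusted p = 0.354). KO replicate 1 was the lowest of the KO group in Dbp, Nr1d1, Nr1d2 and Per3 and the highest in Clock (98.2 CPM). In WT, replicates 3 and 6 had the highest Nr1d1 (28.6 and 27.4 CPM) and the lowest Cry1 (11.6 and 12.2 CPM).

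The spread within each group was compared as the SD of log2 CPM over its 6 libraries. The SD was larger in KO than in WT for 6 of the 10 members, and its median over the members was 0.26 in WT and 0.31 in KO. The share of all rows with a larger SD in KO was not counted. Over the 11167 rows averaging 5 CPM or more the medians were 0.12 and 0.14, so a larger median in KO was not particular to the members. Above these medians were 8 of the 10 members in WT (all but Arntl and Clock) and 8 in KO (all but Clock and Cry1). Arntl went from 0.09 in WT to 0.30 in KO, Cry2 from 0.13 to 0.32, and Cry1 from 0.25 down to 0.06. A limma test of the absolute deviations from the group mean called none of the 10 members at an adjusted p under 0.05, against 0.0408% of all rows. Before adjustment it marked 3 members at a threshold of 0.05, against 8.89% of all rows. Their adjusted p-values over all rows were 0.378 for Cry1, 0.436 for Arntl and 0.532 for Cry2. With so few libraries this test has little power.

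**Figure D3:**
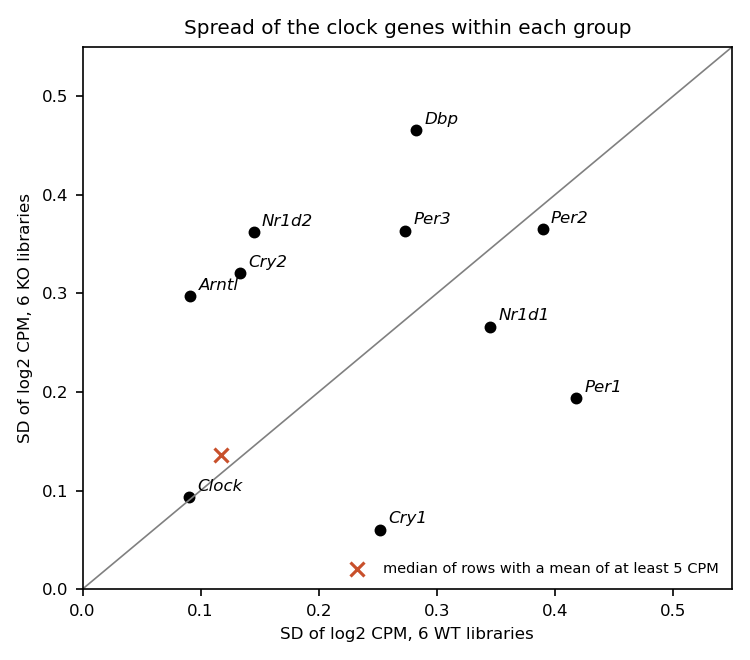
SD of log2 CPM over the 6 WT libraries (x axis) and the 6 KO libraries (y axis) for each clock gene, with the line of equality and a red cross at the median of the rows averaging 5 CPM or more, 0.12 and 0.14. Arntl, Cry2, Nr1d2, Per3 and Dbp lie above the line, Cry1 and Per1 well below it, and Clock close to the cross.

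In FPKM, which scales for gene length and so allows genes to be compared, the order in WT was Per1 (mean 22.7 ± 5.83), Cry2 (21.8 ± 1.97), Clock (17.1 ± 1.27), Nr1d1 (12.6 ± 3.11), Arntl (11.2 ± 0.833), Nr1d2 (10.1 ± 1.04), Dbp (7.67 ± 1.52), Cry1 (4.84 ± 0.784), Per2 (4.07 ± 1.02) and Per3 (3.87 ± 0.746). In 3 neighbouring pairs, Cry2 with Clock, Nr1d2 with Dbp and Dbp with Cry1, the higher gene was higher in all 6 WT libraries, whereas Per1 with Cry2, Nr1d1 with Arntl, Arntl with Nr1d2, Cry1 with Per2 and Per2 with Per3 kept their order in 4 of 6 and cannot be ranked beyond their spread. In KO the order was Per1 (26.6 ± 3.60), Dbp (24.9 ± 7.15), Nr1d1 (23.8 ± 4.23), Clock (18.2 ± 1.45), Cry2 (15.7 ± 3.18), Nr1d2 (10.6 ± 2.25), Arntl (10.5 ± 2.24), Per2 (8.43 ± 1.87), Cry1 (6.23 ± 0.294) and Per3 (4.09 ± 0.864). The first 3 of these held their order in only 3 of 6 KO libraries for each neighbouring pair, while Cry2 was above Nr1d2, and Cry1 above Per3, in all 6. By its mean, Dbp thus moved from the 7th place to among the first 3, which cannot be ranked beyond their spread. The gene lengths behind the FPKM values are shorter than those in the table for 8 of the 10 members, and with the table's lengths only 4 of the 10 genes keep their place in either group, Dbp in both.

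Within groups, 3 relations were tested on log2 CPM in each genotype, 6 in all, by exact two-sided permutation over the 6 libraries. Nr1d1 and Dbp had r = 0.902 in KO (exact p = 0.0153, adjusted over the 6 relations 0.0917) and Spearman's rho = 0.714 (exact p = 0.136, adjusted 0.35), and r = 0.851 without the 2 libraries farthest from the median of Nr1d1, which was 0.393 with library size only in place of TMM. In WT the same pair had r = 0.39 (exact p = 0.396) and rho = 0.714 (exact p = 0.136), and r turned to -0.388 without the 2 farthest libraries, where library size only gave 0.36. No relation passed the adjustment. Arntl with Nr1d1 had r = 0.442 in WT (exact p = 0.39, rho = 0.657 with exact p = 0.175) and -0.167 in KO (exact p = 0.76, rho = -0.143 with exact p = 0.803), and 0.625 and -0.471 without the 2 farthest libraries. Arntl with Dbp had r = 0.263 in WT (exact p = 0.636, rho = 0.543 with exact p = 0.297) and -0.367 in KO (exact p = 0.482, rho = -0.429 with exact p = 0.419), and 0.918 and -0.764 without them.

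Of 21 other clock genes reported, 20 could be tested, and 7 were higher and 3 lower in KO, with a median log2 fold change of 0.18 and 7 genes without overlap of the groups. Over all rows these shares were 25.6% higher, 25.5% lower and 30.1% without overlap, and over the alternatives 7 to 10 genes were higher (10 without WT replicate 1) and 3 to 4 lower. The largest rises were in repressors of the loop. Ciart (also called CHRONO) went from 1.42 ± 0.340 to 7.90 ± 2.36 CPM (log2 fold change 2.47, SE 0.21, adjusted p = 6.84e-08). Bhlhe40 and Bhlhe41, the DEC repressors, which compete for E-boxes, went from 17.6 ± 3.73 to 70.5 ± 11.5 CPM (2.00, SE 0.14, adjusted p = 9.28e-08) and from 10.8 ± 1.31 to 30.5 ± 3.71 CPM (1.495, SE 0.09, adjusted p = 1.64e-09). The groups did not overlap in any of these 3 genes.

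The partners and the other arms went different ways. Npas2, the alternative partner of BMAL1, was lower in KO, at 3.94 to 9.16 CPM (median 5.77) against 8.50 to 14.1 (median 11.4), with a log2 fold change of -0.91 (SE 0.20, adjusted p = 0.00122). Rora, a receptor that activates through ROR elements, rose by 0.26 on the log2 scale (SE 0.05, adjusted p = 0.000724), and the related Rorb, at 0.836 CPM in WT and 1.52 in KO, was not called. Among the D-box factors related to Dbp, Hlf was lower by a log2 fold change of -0.67 (SE 0.12, adjusted p = 0.000162), Nfil3, a repressor at the same sites, was also lower (-0.48, SE 0.11, adjusted p = 0.00111), and Tef was not called (-0.12, SE 0.12, adjusted p = 0.436).

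The kinase genes Csnk1a1 and Gsk3b were higher by 0.28 (SE 0.05, adjusted p = 8.84e-05) and 0.18 (SE 0.05, adjusted p = 0.00443), and Csnk1d and Csnk1e were not called. Fbxw11, an F-box gene for PER degradation, was higher by 0.36 (SE 0.05, adjusted p = 7.47e-06). Arntl2, Cipc, Fbxl21, Btrc, Timeless and Usp2 were not called, and Nono had no row under that name.

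**Figure D4:**
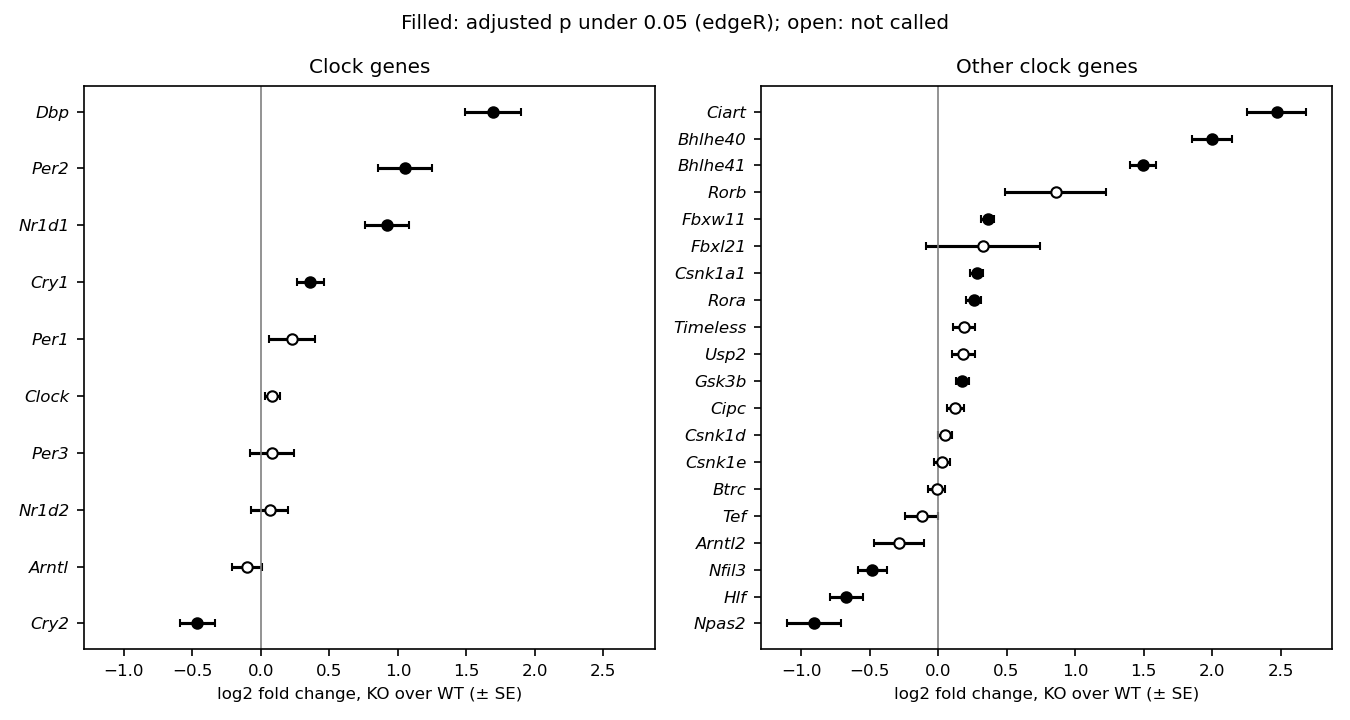
Log2 fold change of KO over WT with its standard error (x axis) for the 10 clock genes (left) and the 20 other clock genes tested (right), filled where the edgeR adjusted p was under 0.05. The values run from -0.46 for Cry2 to 1.70 for Dbp on the left and from -0.91 for Npas2 to 2.47 for Ciart on the right.

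Of 14 genes described as clock-controlled in heart, 4 were higher and 5 lower in KO, with a median log2 fold change of -0.08. Over all rows 25.6% were higher and 25.5% lower. The largest changes were falls in Ucp3, a mitochondrial uncoupling protein (-1.65, SE 0.37, adjusted p = 0.00325), and Pdk4, the kinase that inhibits pyruvate dehydrogenase (-1.58, SE 0.26, adjusted p = 0.000362). Glucocorticoids can act on Per1 and Per2 directly, and of 7 genes known to be induced by them 5 were higher and 1 lower in KO (25.6% and 25.5% over all rows), with a summed level of 730 to 929 CPM in WT and 989 to 1412 CPM in KO. Fkbp5 had the largest change of these, 1.28 (SE 0.19, adjusted p = 0.00017), followed by Tsc22d3 at 0.61 (SE 0.16, adjusted p = 0.00722). Of 7 immediate early genes, which respond to acute stimuli, 0 were higher and 4 lower (25.6% and 25.5% over all rows), led by Fos (-2.02, SE 0.49, adjusted p = 0.00471) and Atf3 (-1.70, SE 0.35, adjusted p = 0.00168). The count lower was 3 under 7 of 23 alternatives, in which Fosb was not called or not tested. The part of the glucocorticoid-induced and immediate early genes in the levels of the Period genes was not tested.

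The rows whose deviations from the group means were most like those of Arntl over the 12 libraries, among 10044 named genes averaging 5 CPM or more, were Egflam (r = 0.94), Hmgcs1 (0.936), Helz2 (0.933), Abca9 (0.927) and Nid1 (0.914), and the most unlike were Bod1 (-0.973), Scaf4 (-0.949), Surf1 (-0.934), Pdp2 (-0.93) and Lrrc61 (-0.894). For Dbp they were Mum1 (0.889), Dcxr (0.868), Ss18l1 (0.865), B4galt3 (0.857) and Nt5dc1 (0.851) on one side and F13a1 (-0.912), Lmtk2 (-0.901), Ywhag (-0.863), Ggcx (-0.856) and Igf2bp2 (-0.848) on the other. None of these 20 is another clock gene of the lists used here. They are the extremes of many correlations and are given as a description. By the same measure, r of Arntl with the other members ran from -0.786 (Cry2) to 0.605 (Clock). That of Dbp ran from -0.586 (Clock) to 0.743 (Nr1d2). None of these values was tested. The SD of log2 CPM of Arntl was 0.09 in WT and 0.30 in KO, where replicates 3 and 6 were both at 23.0 CPM. The order for Arntl therefore leans on these 2 libraries. The SD of Dbp was 0.28 in WT and 0.47 in KO, where replicate 1 was at 16.6 CPM against 25.5 to 40.7 in the others. How far the order for Dbp leans on that library was not tested.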

How the data were processed

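Each library is 1 sample labelled by genotype and number (6 WT, 6 KO), and nothing in the labels ties libraries of the same number. The members, the gene lists, the tests and the rule for named genes were chosen with earlier results of these data known. The rule named the members, Sdhaf4, every called gene among the other clock genes, the 2 called genes of each further list with the largest fold change, genes that overlap a member, and the 5 genes most like and most unlike Arntl and Dbp. Uncalled members of the other clock genes are named to complete their list, from which some genes are not reported here.

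The authors deposited raw counts per gene from HTSeq and FPKM values computed from them. HISAT2 2.0.5 and the build mm10 stand in the submitters' processing notes, whereas the gene identifiers belong to the C57BL/6NJ assembly. Any effect of that mismatch was not tested. The log2 fold changes and p-values of the authors' DESeq comparison and their deposited group means, of FPKM and of a signal (counts scaled for library size), were not used.

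Counts were analysed with edgeR 4.0.16 in R 4.3.3, by filterByExpr, TMM scaling and its quasi-likelihood test (robust dispersions), with p-values adjusted by Benjamini and Hochberg's method over the 17155 rows kept. The F statistic and the fold change gave the standard errors. Spread was tested with limma 3.58.1 on absolute deviations of log2 CPM (prior count 2). Correlations were tested over all orderings of the libraries, with the ranks and the adjustment of p-values from SciPy 1.17.1. The scripts were tested on simulated counts. The closest pair of replicates still had a chi-square of 7.47 per degree of freedom, and none was merged. The edgeR p-values set the difference between the groups against the variation between these libraries. Counts of 182 to 3084 reads lay behind each member's value in a library. Alternatives were other scalings (upper quartile, DESeq2 size factors or the library size alone), filters, tests (limma-voom, DESeq2 1.42.0, and edgeR with plain dispersions), a block on the replicate number and each library left out. The order of levels by the table's lengths and the fit without KO libraries 3 and 6 were chosen with the data in view.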

Additional observations from a re-analysis of the deposited data

Results flagged for a closer look

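Dixon's test marks a library whose gap to its nearest neighbour takes more than the 95% critical share of the range of its group of 6. It was applied to 102 groups of values (51 genes in 2 genotypes) and marked 5, where chance alone gives about 5.1, or 1 in 20. Cry1 in KO replicate 5 was 17.3 CPM against 18.7 to 19.4 CPM in the other KO libraries. The repressor Nfil3 in WT replicate 1 was 14.9 CPM against 19.8 to 22.4 CPM. The targeted gene Sdhaf4 in KO replicate 1 was 2.73 CPM against 2.25 to 2.41 CPM in the other KO libraries. Among the genes whose deviations were compared with those of Arntl and Dbp, Nid1 in WT replicate 6 was 361 CPM against 253 to 288 CPM, and Igf2bp2 in KO replicate 1 was 11.98 CPM against 7.90 to 9.32 CPM.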

How the results depend on the processing

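Over 23 alternatives, the calls of the 10 clock genes kept their direction and their side of the threshold in 226 of 230 cases. The exceptions are Arntl, Nr1d2 and Per3, which were never called. Without both KO libraries 3 and 6 (an alternative chosen after seeing the data) their log2 fold changes were 0.071, -0.057 and -0.075, that of Camta1 was -0.022, 1 clock gene passed the stricter thresholds and 3 had no overlap. Per3 ran from -0.003 (without KO replicate 3) to 0.19 when each library was left out in turn. Igf2bp2, also never called, had a log2 fold change from -0.073 (without KO replicate 1) to 0.056 when each library was left out. The number of clock genes past the stricter thresholds was 2, and 1 to 3 when a library was left out. It was 1 without WT replicate 2, KO replicate 3 or KO replicate 6 (Per2 fell under the fold) and 3 without WT replicate 3, where Nr1d1 reached 1.00. With library size only in place of TMM scaling, 4 clock genes in place of 2 had no overlap of the groups, since Per2 and Cry1 joined, and 2 to 3 did with a library left out. With a replicate block, 4 clock genes were higher and 1 lower as without it, and 8233 in place of 8767 rows were called. Libraries of the same number share only the number: the correlations of their deviations ran from -0.162 to 0.0243, and 1 of 6 WT libraries correlated best with its own number. The block changed no call of the 10 clock genes. Under it F13a1 and Fosb lost their call (adjusted p = 0.0598 and 0.0834) and Usp2 gained one (0.18, adjusted p = 0.0185). Of the other clock genes 7 to 10 were higher over the alternatives, since Rorb, Cipc, Timeless, Usp2 or Csnk1d were called in some, and 3 to 4 lower (Tef). Of the 5 genes most like Arntl and the 5 most like Dbp, 4 and 4 were shared with library size only, and 2 and 3 with Spearman's rho; of the most unlike, 3 and 2, and 2 and 2. Rorb and Fbxl21, which averaged under 2 CPM in both groups, rest on few counts, and so does Ciart in WT (mean 1.42 CPM).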
